A study of Mus musculus with 4 samples.

Results

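This account follows 10 heat shock protein genes in ribosome profiling of primary mouse myoblasts, the cultured precursors of muscle fibres, taken here from hind limbs. The genes were taken from the table by their names and make up 10 of the 55573 genes in the table of ribosome-protected signal. Of these, 7 code for proteins that act mainly in the cytosol (Hsp90aa1, Hsp90ab1, Hspa8, Hspa4, Hsph1, Hspb1 and Cryab) and 3 for proteins of the mitochondrial matrix (Hspa9, Hspd1 and Hspe1). All 10 were found in the table, and all 10 had reads in each of the 4 libraries and passed the filter on low values.

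There were 2 groups of 2 libraries, WT and eIF5A knockout (KO), all from primary myoblasts on day 2 of proliferation in medium with 10% fetal bovine serum and 10 ug/ml FGF. The study's methods describe the knockout mice as Pax7 CreERT2/+; eIF5A f/f, in which tamoxifen activates a Cre recombinase driven by Pax7, a gene of muscle stem cells. The deletion is thus aimed at cells that express Pax7 during tamoxifen treatment, and how many cells of these libraries carried it was not measured here. The control mice are WT littermates, given as Pax7 CreERT2/+ in one passage and as Pax7 +/+; eIF5A f/f in another. Cells came from mice 3 weeks old and were treated with cycloheximide, a drug that holds ribosomes on the mRNA. Fragments protected from RNase I by ribosomes were then sequenced. The sample titles call the assay Polysome-Seq, but the protocol is that of ribosome profiling. No matched RNA measurement was used here, so a change in signal cannot be divided into mRNA amount and translation. The labels do not say whether the 2 libraries of a group came from separate animals or cultures, so p-values measure the spread between these libraries, which may be technical. In bulk samples, fewer cells of a type and less RNA per cell cannot be told apart.

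Heat shock proteins are molecular chaperones that hold, fold or disaggregate other proteins. HSP70 proteins bind short hydrophobic stretches of new or unfolded chains in a cycle driven by ATP, and proteins of the HSP110 family release the bound nucleotide so that the cycle can go on. HSP90 proteins complete the folding of clients such as kinases and steroid receptors, the mitochondrial chaperonin encloses chains in a barrel made from the products of Hspd1 and Hspe1, and small heat shock proteins hold unfolded chains without ATP. In skeletal muscle the small heat shock protein αB-crystallin, the product of Cryab, is abundant and binds desmin and other filaments. Many of these genes are induced by the heat shock factor HSF1, which binds repeats of the unit nGAAn in alternating orientation.

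The targeted gene did not follow the labels. Eif5a was at 34.9 and 65.2 RPKM (reads divided by the length of the gene and by the size of the library) in WT libraries 1 and 2, and at 60.3 and 59.4 RPKM in KO libraries 1 and 2. Its log2 fold change of 0.32 ± 0.48 (SE) had an adjusted p of 0.839 in limma. Reads were counted over the whole gene, so those on parts outside the deletion count as well, and the 2 knockout libraries are therefore called the KO-labelled libraries. The libraries held 642429 to 704006 reads, and the share on protein-coding genes moved with the group, at 41.5% and 33.9% in WT and 65.4% and 59.2% in the KO-labelled libraries. The defining markers of myoblasts were present, with reads on 12 of 12, but their summed signal was lower in the KO-labelled libraries (126 and 139 RPKM) than in WT (359 and 217 RPKM). Endothelial markers, with reads on 10 of 10, summed to 242 and 350 RPKM in WT and 364 and 432 RPKM in the KO-labelled libraries. Fibroblast markers (reads on 11 of 12, Tcf21 at 0) overlapped between groups at 452 to 649 against 524 to 1081 RPKM, as did immune markers (8 of 10, Itgam and C1qa at 0) at 37.4 to 58.2 against 39.6 to 42.2 RPKM. Markers of smooth muscle and pericytes, with reads on 7 of 7, summed to 157 and 123 RPKM in WT and 101 and 111 RPKM in the KO-labelled libraries. A log2 fold change above 0 was found for 1 of 11 tested myoblast, 9 of 11 fibroblast and 8 of 9 endothelial markers. It was found for 2 of 5 immune and 2 of 5 smooth muscle and pericyte markers, beside 50% of all tested genes. The part of these cell type markers in the differences given for the heat shock proteins was not tested.

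The regions around the start sites of these genes were read first, since the chaperonin genes Hspd1 and Hspe1 lie head to head and the heat shock element is a defined sequence. RefSeq promoter windows (build GRCm38.p6, 250 bases before to 50 bases after a start site) matched 5 of the 10 genes, with 7 windows in all. The motifs searched were GAANNTTC and TTCNNGAA, each of 2 units and each its own reverse complement, and the 3-unit runs made of GAANNTTC followed by NNGAA or of TTCNNGAA followed by NNTTC, which are reverse complements of each other and contain the 2-unit motifs. Of 32851 promoter windows, 7.86% held GAANNTTC, 8.52% held TTCNNGAA and 0.603% held a 3-unit run in either order. The shared region of Hspd1 and Hspe1 held an unbroken run of 18 bases that contains both 3-unit motifs, overlapping each other. It lies at chr1:55088059-55088076, beginning 89 bases before the Hspe1 start site on the plus strand and 144 bases before the second Hspd1 start site on the minus strand. In GENCODE M21 the same bases lie in a 5′ UTR exon of the transcript Hspd1-202 and within an intron of Hspd1-203, both of which start farther upstream. The windows of the first Hspd1 start site and of Hspa4 held none of these motifs. Hsph1 had a 3-unit run beginning 36 bases after a start site and a 2-unit match 33 bases before it, and Hspb1 had only 2-unit matches, at 117 and 97 bases before its start. The 3-unit runs and the Hspb1 matches are shown with the motif in capitals and up to 6 bases on either side, 5′ to 3′ on the strand of the gene.
Hspe1, chr1:55088053-55088082, plus strand: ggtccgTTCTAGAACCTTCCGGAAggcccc
Hspd1, chr1:55088053-55088082, minus strand: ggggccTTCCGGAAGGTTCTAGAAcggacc
Hsph1, chr5:149636282-149636306, minus strand: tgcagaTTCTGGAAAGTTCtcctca
Hspb1, chr5:135887796-135887815, plus strand: acaagaGAAGTTTCcagatg
Hspb1, chr5:135887816-135887835, plus strand: ggggcaGAACCTTCctggcc

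The first lines show that Hspe1 and Hspd1 carry the same bases read from opposite strands, and that the run for Hsph1 is shorter. A match is only a description of letters, and no binding of a factor was measured in these cells. The whole Hspb1 window, chr5:135887669-135887968 on the plus strand, is printed to show how both of its 2-unit matches sit ahead of the start site, which is the 50th base from the end.
Hspb1 promoter: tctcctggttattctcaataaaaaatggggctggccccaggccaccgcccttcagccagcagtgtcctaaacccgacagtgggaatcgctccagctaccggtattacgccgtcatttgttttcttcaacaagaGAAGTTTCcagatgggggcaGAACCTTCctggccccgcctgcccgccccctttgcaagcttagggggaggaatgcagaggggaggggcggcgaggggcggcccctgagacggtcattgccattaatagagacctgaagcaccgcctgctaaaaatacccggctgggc

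Levels were compared first, as RPKM, which is per length of the whole gene model. Cryab was the highest with a mean of 452 RPKM over the 4 libraries, followed by Hsp90ab1 at 421 RPKM. A single step of 6.26-fold led down to Hspa9 at 67.2 RPKM, and the other 7 genes followed in the order Hspa4 (56.8 RPKM), Hspb1 (54.9), Hspa8 (45.0), Hsp90aa1 (43.7), Hspd1 (41.6), Hspe1 (40.4) and Hsph1 (28.6). Of the 9 neighbouring pairs in this order, only Hsp90ab1 and Hspa9 had ranges over the 4 libraries that did not overlap. Below the leading pair the order differed by group, with Hspb1 next by its WT mean of 54.2 RPKM and Hspe1 last at 24.2 RPKM, while Hspe1 had a mean of 56.5 RPKM in the KO-labelled libraries, behind Hspa9 and Hspa4. Cryab and Hsp90ab1 together took 65.8% and 75.5% of the summed RPKM of the 10 genes in WT and 63.1% and 74.8% in the KO-labelled libraries. The step between these 2 genes and the rest was therefore seen in every library.

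**Figure D1:**
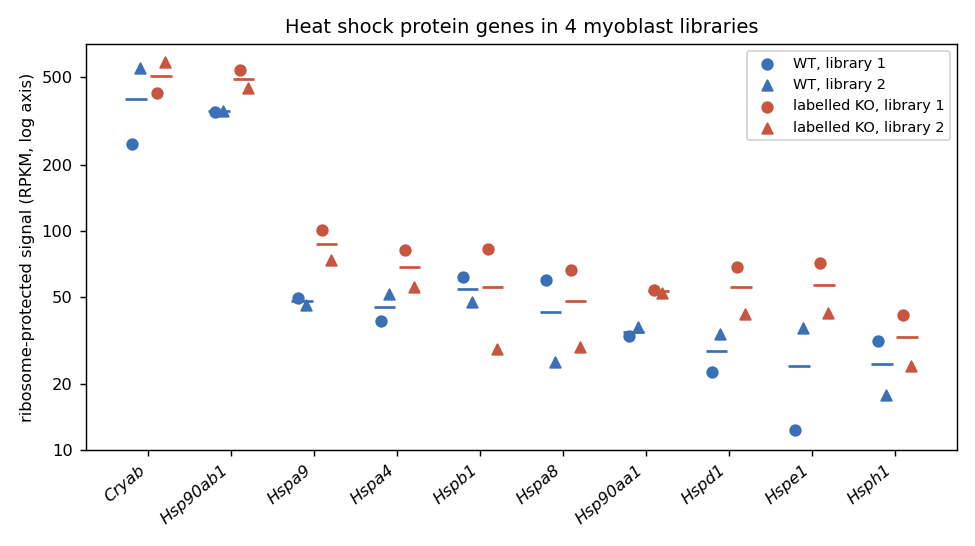
Ribosome-protected signal of the 10 genes in RPKM (log axis) for each library, with circles for library 1, triangles for library 2, blue for WT and red for the KO-labelled libraries; bars are group means. Cryab and Hsp90ab1 stand at 248 to 584 RPKM, above the other 8 genes, which lie between 12.4 and 100.3 RPKM.

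The order changed when reads were divided by the length of the longest coding sequence, since ribosomes protect mainly the coding part. On that scale, RPKM per coding length, Cryab had a mean of 1273 and Hsp90ab1 of 581. Hspe1 moved from place 9 to place 3 at 194, as its coding sequence fills only 20.8% of the gene model, while that of Hsp90ab1 fills 72.4%. The genes that followed were Hspa9 (142), Hspa4 (124), Hspa8 (100.0), Hspb1 (90.3), Hsph1 (80.7), Hsp90aa1 (78.0) and Hspd1 (64.0). Cryab and Hsp90ab1 led on both scales, and the order below them depended on the scale. The coding scale was added after the values were seen.

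Hsp90ab1 (ENSMUSG00000023944, chr17:45567775-45573271, minus strand, 11 exons) codes for HSP90β, the form of HSP90 that most cells make at all times. It was at 345.7 and 352.5 RPKM in WT and at 540.8 and 445.4 RPKM in the KO-labelled libraries, from 498 to 1471 reads. The WT libraries were close to each other and both KO-labelled libraries lay above them, with means of 349 ± 4.79 and 493 ± 67.4 RPKM (SD, n = 2). This difference, 0.49 ± 0.52 (SE) as a log2 fold change, did not pass the test (limma, adjusted p = 0.762).

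Hsp90aa1 (ENSMUSG00000021270, chr12:110690605-110702728, minus strand, 11 exons) codes for HSP90α, the stress-inducible form. It was at 32.9 and 36.2 RPKM in WT and at 53.6 and 52.0 RPKM in the KO-labelled libraries, with 67 to 191 reads. The libraries of each group were close to each other, and the groups did not overlap. A log2 fold change of 0.60 ± 0.40 (SE) was obtained, with a 95% interval of -0.39 to 1.59 (limma, adjusted p = 0.697), and the value was 0.26 with the GC trend removed. The balance between the HSP90 forms was measured as the share of Hsp90aa1 in their sum, which does not depend on how libraries are scaled. That share was 8.69% and 9.31% in WT and 9.01% and 10.4% in the KO-labelled libraries. The groups overlapped in this share (exact two-sided permutation p = 0.667, where 2 libraries against 2 cannot give less than 0.333).

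Hspa8 (ENSMUSG00000015656, chr9:40800984-40810087, plus strand, 9 exons) codes for HSC70, the HSP70 protein that cells make without stress. It was at 59.8 and 25.2 RPKM in WT and at 65.9 and 29.4 RPKM in the KO-labelled libraries, with 51 to 257 reads. Library 1 was higher than library 2 in both groups, and the groups overlapped. Its log2 fold change was 0.18 ± 0.63 (SE), with an interval of -1.37 to 1.73 (limma, adjusted p = 0.939). The sign turned with the GC trend removed (-0.020) and when WT library 2 (-0.43) or KO library 1 (-0.39) was left out.

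Hspa4 and Hsph1 code for proteins of the HSP110 family. Hspa4 (ENSMUSG00000020361, chr11:53259814-53300457, minus strand, 19 exons) was at 38.7 and 51.5 RPKM in WT and at 81.8 and 55.3 RPKM in the KO-labelled libraries. Its lower KO-labelled value was close to the higher WT value, and the log2 fold change of 0.58 ± 0.46 (SE) had an adjusted p of 0.718 in limma and ranged from 0.30 to 0.86 as each library was left out. Hsph1 (ENSMUSG00000029657, chr5:149614287-149636376, minus strand, 19 exons) was at 31.3 and 17.8 RPKM in WT and at 41.3 and 24.0 RPKM in the KO-labelled libraries. The groups overlapped for Hsph1, with a log2 fold change of 0.40 ± 0.50 (SE, limma, adjusted p = 0.800). Its value was 0.011 when WT library 2 was left out and 0.022 when KO library 1 was. The ratio of Hsph1 to Hspa4 was 0.808 and 0.346 in WT and 0.505 and 0.434 in the KO-labelled libraries, so the KO-labelled values lay between those of WT.

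The mitochondrial members had the 3 highest log2 fold changes of the 10 genes, an order that did not hold in full with the GC trend removed or when WT library 1, WT library 2 or KO library 1 was left out. Hspa9 (ENSMUSG00000024359, chr18:34937414-34954357, minus strand, 17 exons) codes for mortalin, the HSP70 protein of the matrix, which also pulls imported chains through the inner membrane. It was at 49.3 and 45.8 RPKM in WT and at 100.3 and 73.5 RPKM in the KO-labelled libraries, with 93 to 392 reads. Both KO-labelled values lay above WT, with means of 47.5 ± 2.45 and 86.9 ± 18.9 RPKM (SD, n = 2). A log2 fold change of 0.84 ± 0.44 (SE) had a 95% interval of -0.23 to 1.92 (limma, adjusted p = 0.680). The ratio of Hspa8 to Hspa9, the cytosolic and the mitochondrial HSP70 gene, was 1.21 and 0.550 in WT and 0.657 and 0.399 in the KO-labelled libraries, with overlap (exact two-sided permutation p = 0.667).

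Hspd1 (ENSMUSG00000025980, chr1:55077835-55088243, minus strand, 12 exons) codes for HSP60, the barrel of the chaperonin. It was at 22.6 and 33.7 RPKM in WT and at 68.4 and 41.7 RPKM in the KO-labelled libraries. The means were 28.2 ± 7.88 and 55.1 ± 18.9 RPKM (SD, n = 2), without overlap, and the log2 fold change of 0.93 ± 0.48 (SE) had an adjusted p of 0.680 in limma and ranged from 0.58 to 1.28 as each library was left out. Hspe1 (ENSMUSG00000073676, chr1:55088132-55091307, plus strand, 4 exons) codes for HSP10, the lid of the barrel. It was at 12.4 and 36.0 RPKM in WT and at 71.1 and 42.0 RPKM in the KO-labelled libraries. WT library 1 held only 11 reads of Hspe1, with an exact 95% Poisson interval of 5.49 to 19.7 reads, which covers counting error only. The log2 fold change of 1.32 ± 0.62 (SE) was the highest of the 10, but its interval of -0.21 to 2.85 included 0 (limma, adjusted p = 0.676). Leaving out WT library 1 gave 0.59 for Hspe1, and leaving out WT library 2 gave 2.06.

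The chaperonin genes overlap by 112 bases at their 5′ ends on opposite strands, and whether strand was used in counting is not given in the sources used here, so reads in that overlap may be shared. The groups overlapped in the ratio of Hspd1 to Hspe1 (exact two-sided permutation p = 1). In RPKM that ratio was 1.83 (95% interval 0.909 to 3.98) and 0.937 (0.558 to 1.60) in WT. In the KO-labelled libraries it was 0.963 (0.744 to 1.25) and 0.993 (0.695 to 1.43). Per length of the gene model, the barrel and lid genes thus had close to equal RPKM in 3 of the 4 libraries, and the exception rested on the 11 reads of Hspe1. Per coding length they were not equal, and Hspe1 was the higher in all 4 libraries. On that scale Hspe1 was at 59.6 and 173 RPKM in WT and at 342 and 202 RPKM in the KO-labelled libraries, against 34.7 and 51.9, and 105 and 64.1 RPKM, for Hspd1.

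Hspb1 (ENSMUSG00000004951, chr5:135887919-135889563, plus strand, 3 exons) codes for HSP27 in the nomenclature of human cells, a small heat shock protein that binds actin filaments. It was at 61.1 and 47.4 RPKM in WT and at 82.3 and 28.8 RPKM in the KO-labelled libraries, from 23 to 77 reads. The KO-labelled libraries lay on either side of both WT libraries. Hspb1 was the only member with a log2 fold change under 0, at -0.14 ± 0.60 (SE, limma, adjusted p = 0.953), and that sign turned to 0.38 when the trend with coding GC content was removed and to 0.47 with libraries scaled to the same sum. It also depended on single libraries, at 0.60 when KO library 2, 0.044 when WT library 1 and -0.88 when KO library 1 was left out.

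Cryab (ENSMUSG00000032060, chr9:50751325-50756636, plus strand, 4 exons) was at 247.9 and 549.6 RPKM in WT and at 425.7 and 584.3 RPKM in the KO-labelled libraries, from 221 to 698 reads. Library 2 was the higher in both groups. Between groups the log2 fold change was 0.43 ± 0.63 (SE, limma, adjusted p = 0.830), and it was -0.14 without WT library 1. The ratio of Cryab to Hspb1 was 4.05 and 11.6 in WT and 5.17 and 20.3 in the KO-labelled libraries, with library 2 the higher in both groups.

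No member was called at an adjusted p under 0.05 in limma, in either direction. Of all 11363 genes tested, 0.0088% were called higher in the KO-labelled libraries and 0.0968% lower. At an unadjusted p under 0.05 the count of members was again 0 in each direction, beside 2.86% of tested genes higher and 4.46% lower (2.94% and 3.04% of the protein-coding ones). With limma-voom on the recovered reads, 2 of the 10 members passed an unadjusted p under 0.05, both of them higher, where 3.48% of tested genes were higher and 6.66% lower. They were Hspd1 (log2 fold change 0.95, adjusted p = 0.485 in limma-voom) and Hspe1 (1.39, adjusted p = 0.366), and neither passed after adjustment.

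Most members had the same sign of difference. Values above 0 were found for 9 of 10 genes, beside 50% of all tested genes and 53.1% of protein-coding ones. For 6 members (Hsp90aa1, Hsp90ab1, Hspa4, Hspa9, Hspd1 and Hspe1) both KO-labelled values lay above both WT values, which 20.1% of all tested genes and 22.4% of the protein-coding ones also showed. With libraries scaled to the same sum the count was 8, with Hsph1 and Cryab added, but 41.4% of all tested genes were then also without overlap and higher. No member had both KO-labelled values below WT, beside 20.3% of tested genes (19.3% of protein-coding ones). The median log2 fold change was 0.54 over the 10 members, 0.43 over the 7 cytosolic and 0.93 over the 3 mitochondrial ones. The median of all tested genes was 0.00026, and that of the protein-coding genes 0.049. The backgrounds used here and below take in genes down to a mean of 1 RPKM, while each member had a mean of at least 28.6 RPKM. Genes of a like level were not set apart, so the part of signal level in these contrasts was not tested. The members share the same 4 libraries, so they do not count as separate observations of a common direction.

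**Figure D2:**
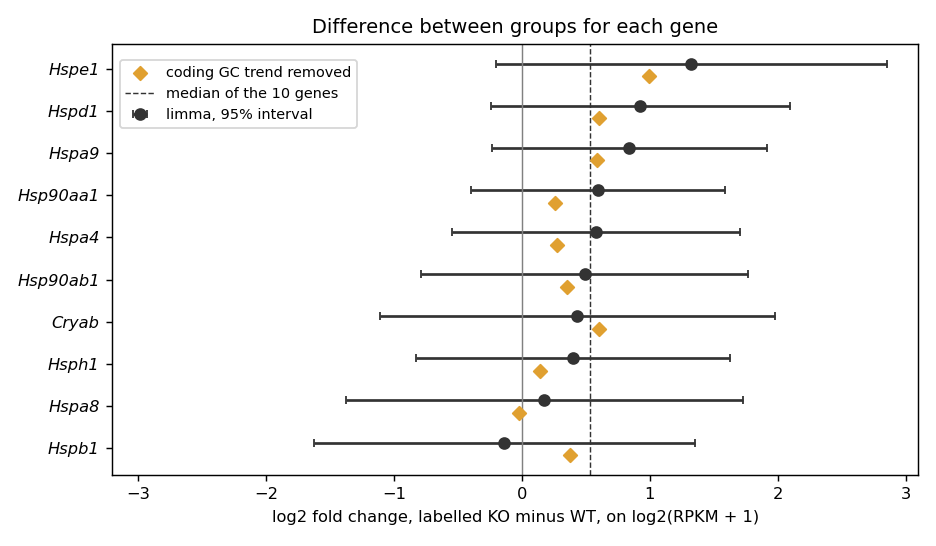
Log2 fold change of each member on log2(RPKM + 1), KO-labelled libraries minus WT, with limma's 95% interval (black) and the value after removal of the coding GC trend (orange diamonds); the dashed line is the median of 0.54. All 10 intervals include 0, and only Hspb1 lies below 0 before the GC trend was removed.

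The summed signal of the 10 genes was higher in both KO-labelled libraries than in WT. It was 902 and 1196 RPKM in WT and 1531 and 1376 RPKM in the KO-labelled libraries, a ratio of means of 1.39. The 3 mitochondrial members summed to 84.2 and 116 RPKM in WT and to 240 and 157 RPKM in the KO-labelled libraries, 1.99 times as much. The 7 cytosolic members summed to 817 and 1080 against 1291 and 1219 RPKM, a ratio of 1.32. Groups did not overlap in any of these sums, and each reached the smallest p that 2 libraries against 2 allow (exact two-sided permutation p = 0.333). The mitochondrial share of the sum was 9.34% and 9.66% in WT and 15.7% and 11.4% in the KO-labelled libraries, also without overlap (exact permutation p = 0.333).

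As a share of protein-coding reads, which were themselves a larger part of the KO-labelled libraries (65.4% and 59.2% of all reads) than of WT (41.5% and 33.9%), the 10 genes took 0.579% (95% Wilson interval 0.551 to 0.608) and 0.633% (0.600 to 0.667) in WT. In the KO-labelled libraries they took 0.848% (0.822 to 0.875) and 0.740% (0.714 to 0.768). These shares rested on 1377 to 3900 reads of the members. The groups did not overlap (exact two-sided permutation p = 0.333), but the intervals of the 2 KO-labelled libraries did not overlap each other either, so libraries of one group also differed by more than counting error. The part of this shift in read composition in the differences between groups was not tested.

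Libraries of the same group differed from each other by more than the groups did for several members. Hspa8 was 2.38-fold higher in WT library 1 than in WT library 2 and 2.24-fold higher in KO library 1 than in KO library 2. Hsph1 showed the same order, at 1.76-fold and 1.72-fold. Of 1663 tested genes with at least 200 reads, 4.75% had library 1 over 1.5-fold above library 2 in both groups, and Hspa8 and Hsph1 were the only members to do so. The reverse was seen in 4.51% of these genes and in no member. The threshold was chosen after the values were seen. Cryab lay on the other side, with library 2 above library 1 by 1.15 on the log2 scale in WT and by 0.46 in KO. Hspe1 and Hspd1 were lower in WT library 1 than in WT library 2 and higher in KO library 1 than in KO library 2, and Hsp90aa1 and Hsp90ab1 differed by at most 0.28 on the log2 scale between libraries of one group.

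**Figure D3:**
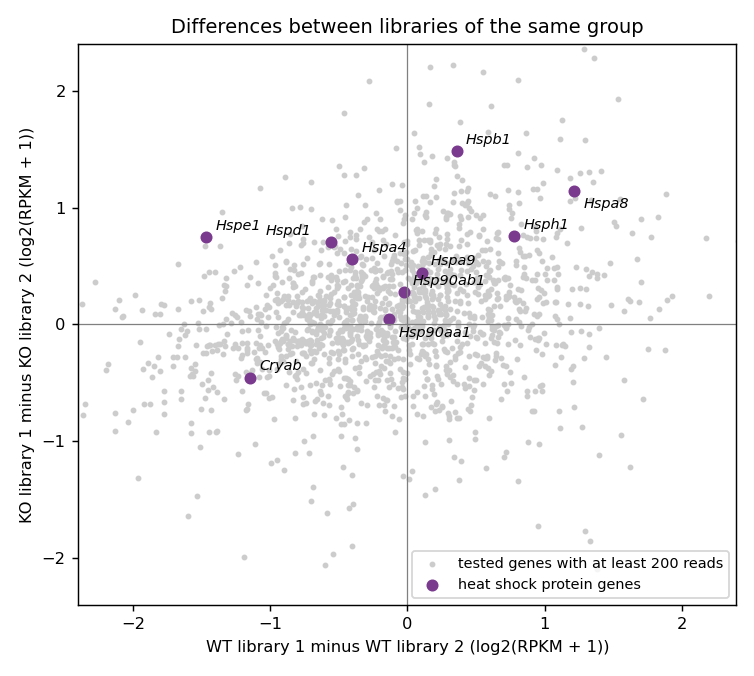
Difference between libraries 1 and 2 of WT (x axis) and of the KO-labelled libraries (y axis) on log2(RPKM + 1), for tested genes with at least 200 reads (grey) and the 10 members (purple); 47 genes lie outside the axes. Hspa8 (1.22 and 1.14) and Hsph1 (0.78 and 0.76) sit at upper right and Cryab (-1.15 and -0.46) at lower left.

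Base composition moved with the group difference. Over 9847 tested protein-coding genes with a coding sequence, the log2 fold change and the coding GC content had a Spearman correlation of -0.36, a description across genes that share the same 4 libraries. Over the 10 members it was -0.75. The coding GC content of the members ran from 43.4% in Hsp90aa1 to 64.8% in Hspb1, and the median of the tested genes was 53.2%. Of the 3 members with the highest fold changes, Hspe1 (43.8%) and Hspd1 (44.0%) lay near the lower end, and Hspa9 (47.0%) lay in the middle, above Hspa4 (44.8%) and Hsph1 (46.8%). When the trend was removed within each library, the median of the members was 0.37, 9 of 10 lay above 0 beside 51.4% of protein-coding genes, and 5 did not overlap between groups beside 19.5%. Hspa4 no longer separated the groups. The value was 0.99 for Hspe1 and 0.60 for each of Cryab and Hspd1, then 0.59 for Hspa9, 0.38 for Hspb1 and 0.35 for Hsp90ab1. It was 0.27 for Hspa4, 0.26 for Hsp90aa1, down from 0.60, then 0.14 for Hsph1 and -0.020 for Hspa8. Hspe1 thus remained the highest, and Cryab, Hspd1 and Hspa9 differed from each other by far less than their SEs. The part of GC content in the difference between groups was not tested beyond this removal.

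**Figure D4:**
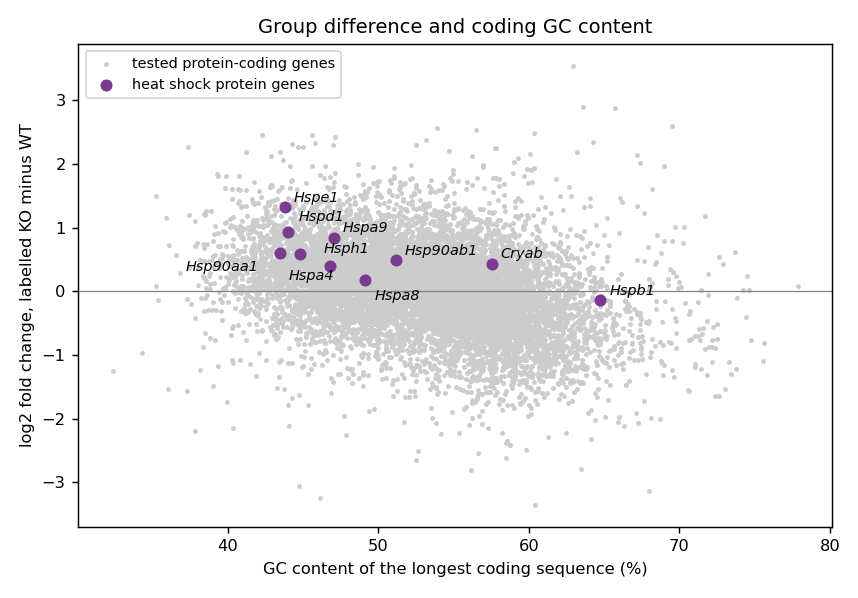
Log2 fold change (KO-labelled libraries minus WT, on log2(RPKM + 1)) against the GC content of the longest coding sequence in percent, for tested protein-coding genes (grey) and the 10 members (purple). The members run from Hsp90aa1 at 43.4% to Hspb1 at 64.8%, and both the grey cloud and the members decline to the right.

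eIF5A is known to help ribosomes through runs of consecutive prolines. None of the 10 proteins, read from the longest coding sequences, had a run of 3 or more prolines, while 25.8% of the tested coding genes did. The longest run was 2 in 8 members and 1 in Hspd1 and Hspe1. The comparison of the members between groups thus concerns genes without runs of 3 or more prolines. How common runs of 2 are among the tested genes was not counted. The paper also gives eIF5A, in its modified form, a role in elongation in general, which these runs do not cover.

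The search for genes with the most similar pattern used the mean of the members' centred log2 values in the 4 libraries and 1655 candidates with at least 200 reads. Flna, which codes for the actin crosslinker filamin A, was closest, at a Euclidean distance of 0.0531, with 31.2 and 33.0 RPKM in WT and 56.7 and 38.6 RPKM in the KO-labelled libraries. Rpn2, a subunit of the oligosaccharyltransferase of the endoplasmic reticulum (ER), followed at 0.0983, then Ap1g1 (0.127), Dpysl2 (0.131) and Thbs4 (0.132). Members themselves lay at 0.195 (Hspa4) to 1.22 (Hspe1) from their mean, so with 4 libraries several other genes lay closer to it than any member.

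Partners and relatives of the members were read next, from lists of 76 chaperone genes outside the 10, of which 65 were tested. Of these, 40 lay above 0 and 25 below, with a median log2 fold change of 0.18, and 20 of the 65 had KO-labelled values above and 9 below both WT values, beside 20.1% and 20.3% of all tested genes. As each library was left out, the median of the 65 ran from 0.047 (without WT library 1, 34 above 0 and 31 below) to 0.21 (without WT library 2). With libraries scaled to the same sum it was 0.68, with 57 above 0 and 8 below, a scaling that also raised the median of all tested genes. None was called at an adjusted p under 0.05 in limma, and 4 higher and 1 lower passed an unadjusted p under 0.05, beside 2.86% and 4.46% of all tested genes. The medians were 0.30 for 8 other genes of the HSP70 and HSP110 families, 0.21 for 20 HSP70 cochaperones and 0.20 for 18 HSP90 cochaperones. They were 0.13 for 13 mitochondrial chaperones and proteases, -0.41 for 3 small heat shock proteins and 0.31 for 3 heat shock factors and regulators. The mitochondrial list, with 7 of 13 above 0, did not share the median of the 3 mitochondrial members.

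Among HSP70 cochaperones, Dnajc7, a J-domain protein that also binds HSP90, was at 6.82 and 6.55 RPKM in WT and at 15.4 and 15.3 RPKM in the KO-labelled libraries. Its log2 fold change of 1.09 passed an unadjusted p under 0.05 but not adjustment (limma, adjusted p = 0.665). Dnaja4, another J-domain protein, had a log2 fold change of 1.18 on only 2, 3, 12 and 14 reads (limma, adjusted p = 0.672). Dnaja2, which stimulates HSC70, was at 38.5 and 59.2 RPKM in WT and at 67.4 and 64.1 RPKM in the KO-labelled libraries, with a log2 fold change of 0.45. Bag3, which links HSP70 to small heat shock proteins in muscle, was at 49.9 and 63.8 against 46.5 and 62.3 RPKM, with a log2 fold change of -0.066 that turned positive with the GC trend removed and with scaling to the same sum. Bag6, which guards proteins bound for membranes, stood at 0.22. No gene of this list passed the adjusted test.

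Among HSP90 cochaperones, Stip1, which hands clients from HSP70 to HSP90, had the highest mean RPKM of the 65 per length of the gene model. Per coding length Ptges3 (160) and Dnaja2 (138) lay above Stip1 (127). Stip1 was at 83.4 and 83.6 RPKM in WT and at 133.9 and 90.4 RPKM in the KO-labelled libraries, with a log2 fold change of 0.39. Ptges3, the cochaperone p23, had 28.4 and 27.8 RPKM in WT and 54.2 and 28.5 RPKM in the KO-labelled libraries, so that only KO library 1 stood apart. Ppid, a cyclophilin that binds HSP90, was at 6.08 and 5.49 against 13.3 and 12.5 RPKM, a log2 fold change of 1.04 (limma, adjusted p = 0.672). In mitochondria, Yme1l1, a protease of the inner membrane, was at 6.21 and 9.28 against 18.3 and 14.5 RPKM (log2 fold change 1.01, limma, adjusted p = 0.672).

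The stress-inducible side was read from Hsf1 and the inducible HSP70 genes. Hsf1, the main heat shock factor, was at 4.91 and 5.08 RPKM in WT and at 1.86 and 2.27 RPKM in the KO-labelled libraries, on 12 to 21 reads. Its log2 fold change was -0.97, while that of the members had a median of 0.54 (limma, adjusted p = 0.672). Hsf2, another heat shock factor, named after its value was seen, stood at 1.21 (limma, adjusted p = 0.676), opposite in sign to Hsf1. Hspa1a was at 1.12 RPKM and 0 in WT and at 2.23 and 1.25 RPKM in the KO-labelled libraries, on 0 to 6 reads. Hspa1b was at 5.92 and 4.54 RPKM in WT and lower at 2.75 and 1.77 RPKM in the KO-labelled libraries, without overlap, on 4 to 10 reads. Its log2 fold change of -0.94 did not pass the test (limma, adjusted p = 0.675), and the value was -0.41 with the GC trend removed. Hspa1a and Hspa1b are near-identical copies, so their reads may be divided arbitrarily between them. The inducible HSP70 genes thus had at most 10 reads in any library, below Hspa8 with 51 to 257 reads. Pseudogenes named after members took 8 reads in all, over 4 of 12 annotated ones.

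The other main folding machines were set beside the members. All 8 subunits of CCT, the cytosolic chaperonin that folds actin and tubulin, lay above 0, with a median log2 fold change of 0.90. Of all tested genes 50% lay above 0, and of the protein-coding ones 53.1%. For 7 CCT genes both KO-labelled values lay above both WT values, beside 20.1% of all tested and 22.4% of protein-coding genes. The CCT median rested on WT library 1 in part, since it was 0.34 without that library and 1.46 without WT library 2. Of 15 chaperones of the ER, 13 lay above 0, with a median of 0.74, and 9 had KO-labelled values above both WT values, read against the same background, while Sdf2l1 had both below. The ER median was 0.14 without KO library 1, with 11 of 15 above 0, and 1.28 without KO library 2. Neither list had a gene at an unadjusted p under 0.05 in limma. With limma-voom 2 CCT genes (Cct3 and Cct8) and 2 ER genes (Pdia3 and Dnajb11) passed that threshold, all higher, and none passed adjustment. In that fit 3.48% of tested genes were higher and 6.66% lower. With the GC trend removed 2 ER genes (Creld2 and Dnajb11) passed an unadjusted p under 0.05, both higher, beside 3.48% of genes higher and 3.34% lower. After removal of the GC trend the medians were 0.66 for the 7 CCT genes with a coding sequence on record and 0.53 for the ER chaperones, beside 0.37 for the heat shock proteins. The median of the mitochondrial members, 0.93, lay next to that of CCT, and that of the cytosolic members, 0.43, lay below both lists. Differences between the lists were not tested.

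**Figure D5:**
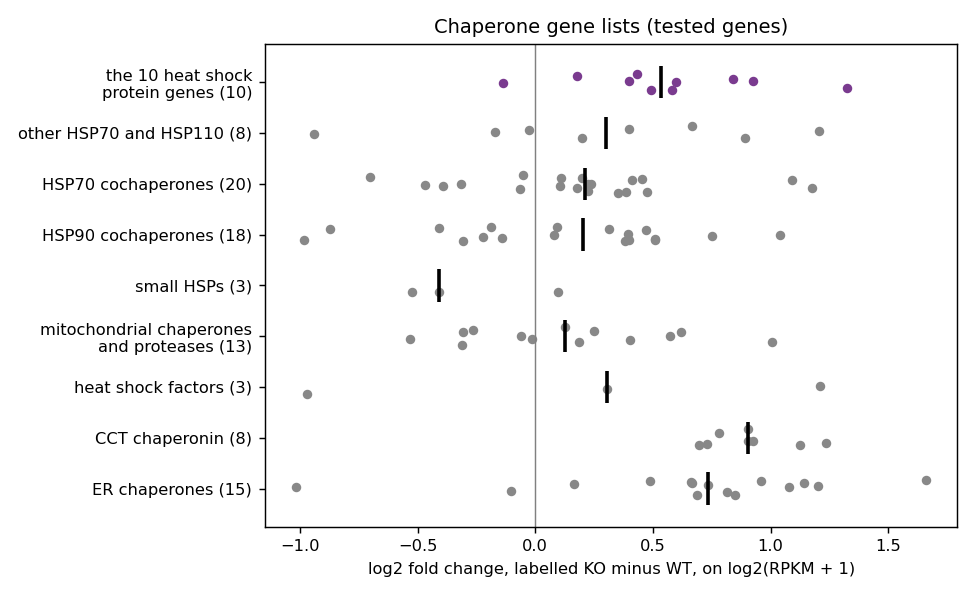
Log2 fold change (KO-labelled libraries minus WT, on log2(RPKM + 1)) of every tested gene in each chaperone list, with the number of tested genes in brackets and the list median as a black bar; the 10 heat shock proteins are purple. Medians run from -0.41 for the other small heat shock proteins to 0.90 for CCT, with the heat shock proteins at 0.54.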

How the data were processed

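The authors deposited RPKM values per gene and library with gene lengths. Their methods name 50-base single-end reads, exclusion of poor reads and of those from rRNA and tRNA, TopHat2 with an Ensembl annotation on mm10 and HTSeq. Strand and multi-mapping rules are not given in the sources used here. RPKM times gene length gave whole reads for 100% of values (tolerance 0.01 reads) in each library. The library sizes behind the deposited RPKM followed median-of-ratios factors, so they hold the typical gene and not the total. Groups came from the sample titles. limma 3.58.1 in R 4.3.3 (lmFit, eBayes with trend=TRUE) was run on log2(RPKM + 1), keeping those genes whose mean reached 1 RPKM, with Benjamini-Hochberg adjustment over 11363 genes, and this scale understates changes of weakly read genes. Single values were compared by exact permutation over libraries. limma-voom used genes with at least 20 recovered reads and the authors' library sizes. Coding sequences came from GENCODE M21 (99.7% of identifiers matched), promoters from RefSeq.

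The 10 genes and all lists were chosen with earlier results of these data known. Named genes were all members, Eif5a, pseudogenes of members by name, and of the other chaperone genes those at an unadjusted p under 0.05 with at least 20 reads, the 5 of highest mean RPKM, Hspa1a, Hspa1b and Hsf1, together with the 5 genes closest in pattern. Scripts were tested on simulated data. The sources differ on the time in cycloheximide (10 min in the labels, 1 min in the design text). In the paper's methods 10 min belongs to polysome profiling and 1 min to ribosome profiling, so the labelled time goes with the Polysome-Seq titles. Alternatives were a pseudocount of 0.1, no filter on low values, a minimum of 5 RPKM, the same total of reads over all or over protein-coding genes, limma-voom, removal of the coding GC trend (lowess, span 0.667), a replicate block and leaving out each library.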

Additional observations from a re-analysis of the deposited data

How the results depend on the processing

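Over 12 alternatives, no member passed an adjusted p under 0.05 (limma or limma-voom, adjusted p 0.289 to 1), and of 120 member values 8 changed sign, all in Cryab, Hspa8 and Hspb1. Scaling to the same sum over all genes moved the median of all tested genes to 0.50, that of the members to 1.14, the summed log2 ratio to 1.10 and the CCT and ER chaperone medians to 1.51 and 1.34. It put 5 members and 16 other chaperone genes higher and 0 lower at an unadjusted p under 0.05 (14.8% of all tested genes were higher), with Hspb1 at 0.47 and Bag3 at 0.54. Over protein-coding genes the median of all genes was -0.094, with 2 other chaperone genes higher and 2 lower. limma-voom put 2 members past an unadjusted p under 0.05. Without the GC trend 1 other chaperone gene was higher, Hspa8 was at -0.020, Hspb1 at 0.38 and Bag3 at 0.21. With every gene above 0, or a minimum of 5 RPKM (median of all genes 0.067), 0 other chaperone genes were lower.

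Leaving out each library gave -0.14 to 1.01 for Cryab, -0.43 to 0.78 for Hspa8, -0.88 to 0.60 for Hspb1, -0.27 to 0.14 for Bag3, 0.34 to 1.46 for the CCT median, 0.14 to 1.28 for the ER chaperone median and 0.28 to 0.69 for the summed log2 ratio (0.69 without WT replicate 2). Members at an unadjusted p under 0.05 numbered 0 to 1 (1 without WT replicate 2), and other chaperone genes 0 to 6 higher and 0 to 2 lower (6 and 2 without WT replicate 2, 0 without either KO replicate). In these fits the group with 1 library is assumed to vary like the other, and 1.8% to 7.12% of all tested genes were higher and 1.98% to 6.96% lower, with the highest shares without WT replicate 2. The other 7 members stayed above 0, with Hsph1 at 0.011 to 0.79. Hspb1 and Hspe1 had the fewest reads over the 4 libraries, 162 and 181. The labels give same-numbered libraries no link beyond the number, and whether they shared a batch is not stated. Their pairing correlation was 0.057 over all tested genes, weakly read ones included, while Hspa8 and Hsph1 moved alike in both groups. The replicate block left 0 members called, 3 other chaperone genes higher and 0 lower, with other calls as before. The CCT and ER chaperone alternatives were chosen after seeing the data. The cause of these shifts was not tested.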
